A study of Sus scrofa with 33 samples.

Results

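The genes described here are 10 immediate early transcription factors, FOS, FOSB, JUN, JUNB, EGR1, EGR2, EGR3, ATF3, IER2 and NR4A1, measured in the pituitary of pigs. Their probes were those that the array design named by one of these symbols, as gene name or inside the description, which gave 15 probes. A further 3 probes that the design gave only by accession were added through the pig RefSeq gene table. Of these 18 probes, among 60305 on the array, 14 had a row in the deposited table of 45667 probes, and they covered 8 of the 10 genes, out of 9882 named genes there. EGR3 and ATF3 had no row in that table and are described only by how often their probes rose above background.

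The arrays came from 33 castrated growing pigs, 1 array per pig, of Large White (LW), Creole (CR) or their F1 cross. Pigs of the thermoneutral group (TN, 24 °C in the labels, n = 16) were slaughtered before the ambient temperature was raised. Pigs of the heat stress group (HS, n = 17) were slaughtered after several days of exposure, 5 in the growth protocol of the labels. The temperature is given as 30 °C in the sample characteristics and as 32 °C in that protocol. There were 5 LW TN, 6 LW HS, 5 CR TN, 6 CR HS, 6 F1 TN and 5 F1 HS arrays. All HS pigs were slaughtered later than all TN pigs, so the day of slaughter cannot be told apart from temperature. One array, LW HS 3, carries Large White in its title and Creole in its breed field, and was kept with LW. Between 73.5% and 82.2% of the spots of an array were well above background, and no spot was saturated. All 7 anterior lobe hormone genes examined, among them GH1, PRL and POMC, were well above background on every array. So were AVP and OXT, markers of the posterior lobe, although the study's methods name only the anterior lobe as the part sampled and the labels say pituitary gland. By those methods the pigs came from groups of littermates, which the labels do not identify, so pigs of a breed were not all unrelated and the tests treat them as independent.

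Immediate early genes are switched on within minutes of a stimulus, from factors that the cell already holds, and their mRNAs are short-lived. FOS and JUN proteins pair as the AP-1 factor, and the EGR zinc finger proteins and the orphan nuclear receptor NR4A1 bind other DNA sites. In the pituitary, releasing hormones are known inducers. EGR1 takes part in the control of LHB in gonadotropes, and NR4A1 in that of POMC in corticotropes.

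Several of these probes share sequence, which bears on how many measurements stand behind a gene. FOS had 5 probes, numbered here from the brightest to the dimmest. FOS probes 1 and 3 overlap over 57 of their 60 bases, and probe 2 covers part of the same stretch, with the base shown as a capital missing. The 3 stretches below are shown because these probes are repeated readings of one site rather than separate ones.
FOS probe 1, bases 4 to 33: gtgaggtggtctgaaTgttctgacattaac
FOS probe 2, bases 25 to 53: gtgaggtggtctgaagttctgacattaac
FOS probe 3, bases 1 to 30: gtgaggtggtctgaaTgttctgacattaac
A probe of the mRNA AK232994, which has no gene name in the design, matched FOS probe 1 over all 60 bases and followed it over the 33 arrays (r 0.999). JUN had 2 probes in the table, and they are the same 60-base sequence placed on the array under different names.
JUN probes 1 and 2: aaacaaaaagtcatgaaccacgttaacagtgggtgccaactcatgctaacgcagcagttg
The 14 probes therefore hold 13 distinct sequences. NR4A1 also had 2 probes, and these did not measure alike. The last 10 bases of probe 1 are the first 10 of probe 2, shown as capitals, and their positions in the mRNA were not checked.
NR4A1 probe 1, bases 31 to 60: ttttttgtaagataaaccgtTTTTAACACA
NR4A1 probe 2, bases 1 to 30: TTTTAACACAcacaccgcccgtgctgtaaa
FOSB and JUNB each had 1 dim probe. The FOSB probe is printed because its level is read below close to background.
FOSB probe 1: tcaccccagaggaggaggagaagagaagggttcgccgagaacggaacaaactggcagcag
Whether each probe reads the sense strand of its mRNA was not checked.

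All levels below are log2 of quantile-normalized intensity as deposited, and all differences are HS minus TN in log2 units from limma with breed in the model. FOS encodes the founding member of the FOS family of AP-1 subunits. Its brightest probe measured 10.96, 12.67, 13.07, 13.10 and 13.02 on the LW TN arrays. On the 6 LW HS arrays it ran from 9.82 to 13.92, with a median of 12.46. The LW groups overlapped, and the highest LW value belonged to an HS pig. The CR TN arrays read 12.42, 13.07, 13.42, 14.46 and 14.04. The 6 CR HS arrays ran from 10.35 to 13.09 with a median of 12.57. In CR, 2 HS arrays lay below every TN array of the breed. The 6 F1 TN arrays ran from 11.94 to 14.23 with a median of 12.94, and the F1 HS arrays read 12.79, 10.52, 13.27, 11.21 and 9.81. Here 3 HS arrays lay below all F1 TN arrays.

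Over the 3 breeds FOS averaged 12.995 ± 0.90 (SD, n = 16) in TN and 11.96 ± 1.31 (n = 17) in HS. The difference was -1.06 (SE 0.38, 95% interval -1.83 to -0.30), which is an HS level 0.479 times that of TN. It had an unadjusted p of 0.00811 and did not pass Benjamini-Hochberg adjustment over all probes (adjusted p 0.348). FOS lay below the TN mean of its breed on 13 of 17 HS arrays. Leaving out LW TN 1, whose FOS value stood apart from the other LW TN arrays, gave -1.21, and leaving out F1 HS 5 gave -0.92. The 5 FOS probes gave differences from -1.10 to -0.91, with adjusted p from 0.320 to 0.386. Because the tissue was measured in bulk, fewer cells that express a gene and less of its RNA per cell cannot be told apart.

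FOSB, a close relative of FOS, was measured near background. Its probe was well above background on 14 of 33 arrays, 10 of 16 in TN and 4 of 17 in HS (two-sided Fisher's exact test, p 0.0366, and 0.220 after adjustment over the 6 dim probes tested). Its level ran from 4.69 to 5.67 over all arrays, with 5.39 ± 0.22 in TN and 5.25 ± 0.26 in HS. The difference of -0.13 (SE 0.08, adjusted p 0.686) is that of a probe whose lower values are bounds. It became -0.75 (p 0.0252, adjusted p 0.577) from processed signals scaled to the 75th percentile, and the other alternatives gave -0.14 to -0.10.

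**Figure D1:**
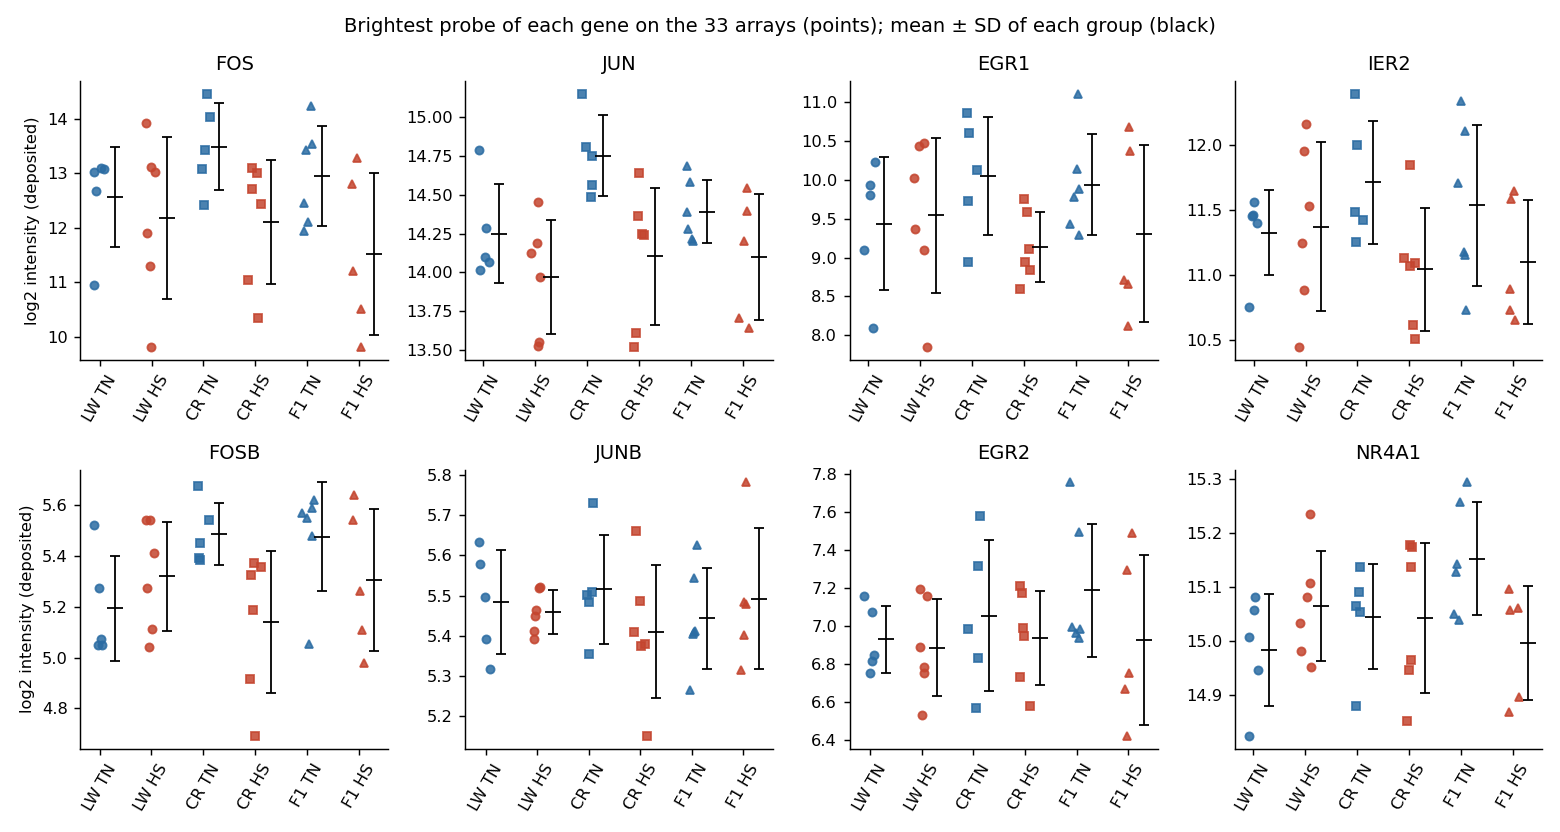
Log2 intensity (y axis) of the brightest probe of each of the 8 genes with a row in the deposited table, on the 33 arrays. Each point is 1 pig, blue for TN and red for HS, with circles for LW, squares for CR and triangles for F1, and black marks give the mean ± SD of a group. The panels have separate axes, and FOS spans 4.65 log2 units against 0.47 for NR4A1.

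JUN, the main partner of FOS in AP-1, was bright and varied less. On the LW TN arrays it read 14.07, 14.79, 14.10, 14.01 and 14.28, and on the 6 LW HS arrays 13.53 to 14.45 with a median of 14.05. The CR TN arrays read 14.81, 14.49, 14.56, 15.15 and 14.75. The 6 CR HS arrays ran from 13.52 to 14.64 with a median of 14.24. In CR, 5 of 6 HS arrays lay below all TN arrays of the breed. The 6 F1 TN arrays ran from 14.20 to 14.68 with a median of 14.33, and the F1 HS arrays read 14.54, 14.40, 14.20, 13.64 and 13.71. In each breed the groups overlapped.

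JUN averaged 14.46 ± 0.32 (n = 16) in TN and 14.05 ± 0.39 (n = 17) in HS. The difference was -0.41 (SE 0.11, 95% interval -0.64 to -0.17), an HS level 0.754 times that of TN. Its unadjusted p was 0.00121 and its adjusted p 0.193, and for 14 of 17 HS arrays JUN was under the mean of the TN arrays of that breed. The repeat spot of the same sequence gave -0.40 (p 0.000806, adjusted p 0.170). JUN thus had the smallest p of the 8 genes, although FOS had the largest difference. Another JUN probe, of another sequence, was above background on 0 of 33 arrays and has no row in the table. JUNB, another AP-1 subunit, was dim, above background on 24 of 33 arrays, 12 of 16 in TN and 12 of 17 in HS. Its level was 5.48 ± 0.12 in TN and 5.45 ± 0.14 in HS, a difference of -0.03 (SE 0.05, 95% interval -0.13 to 0.07).

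EGR1 encodes a zinc finger factor. It read 8.09, 9.10, 10.23, 9.93 and 9.81 on the LW TN arrays, and 7.84 to 10.47 on the LW HS arrays, with a median of 9.70. It read 8.94, 9.73, 10.12, 10.86 and 10.61 on the CR TN arrays, and 8.60 to 9.75 on the CR HS arrays, with a median of 9.03. Of the CR HS arrays, 2 lay below all CR TN arrays. The F1 TN arrays ran from 9.29 to 11.11 with a median of 9.83, and the F1 HS arrays read 10.37, 8.12, 10.68, 8.71 and 8.65. Of these, 3 lay below all F1 TN arrays and the other 2 within their range.

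EGR1 averaged 9.82 ± 0.75 in TN and 9.33 ± 0.86 in HS. The difference was -0.48 (SE 0.27, 95% interval -1.04 to 0.08) with an unadjusted p of 0.0898 and an adjusted p of 0.648. EGR2, of the same family, averaged 7.07 ± 0.32 in TN and 6.92 ± 0.30 in HS, a difference of -0.14 (SE 0.11, adjusted p 0.734). A second EGR2 probe, outside the table, was above background on 3 arrays, 1 TN and 2 HS. The EGR3 probe was above background on 9 of 16 TN and 4 of 17 HS arrays (two-sided Fisher's exact test, p 0.0799, adjusted p 0.240). ATF3, a stress-induced bZIP factor, was above background on 1 of 16 TN and 2 of 17 HS arrays, so its level was not measured.

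IER2 encodes a short nuclear protein of the immediate early response. It read 10.75, 11.46, 11.56, 11.40 and 11.45 on the LW TN arrays, and 10.44 to 12.16 on the LW HS arrays, with a median of 11.39. The CR TN arrays read 11.42, 11.25, 11.48, 12.39 and 11.998, and the CR HS arrays 10.51 to 11.84, with a median of 11.08. Of the CR HS arrays, 5 of 6 lay below all TN arrays of the breed. The F1 TN arrays ran from 10.73 to 12.34 with a median of 11.44, and the F1 HS arrays read 11.58, 10.89, 11.65, 10.73 and 10.66. IER2 averaged 11.52 ± 0.49 in TN and 11.17 ± 0.53 in HS. The difference was -0.35 (SE 0.17, 95% interval -0.71 to 0.0034), with an unadjusted p of 0.0521 and an adjusted p of 0.579.

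NR4A1 was read by 2 probes that differed in level and in spread. Its bright probe read 15.07 ± 0.12 in TN and 15.04 ± 0.11 in HS, a difference of -0.03 (SE 0.04, 95% interval -0.12 to 0.07). Its second probe read 10.94 ± 0.64 in TN and 11.13 ± 0.29 in HS, a difference of 0.19 (SE 0.17, limma p 0.262, adjusted p 0.776). This ran from 0.11 without LW TN 2 to 0.27 without F1 TN 6, and was 0.05 with array weights. Within the TN groups the second probe had an SD of 0.65 and the first one of 0.10, a difference in spread that was not tested. The 2 probes correlated by r 0.285 over the 33 arrays after group means were removed, against r from 0.980 to 0.998 among the 5 FOS probes.

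**Figure D2:**
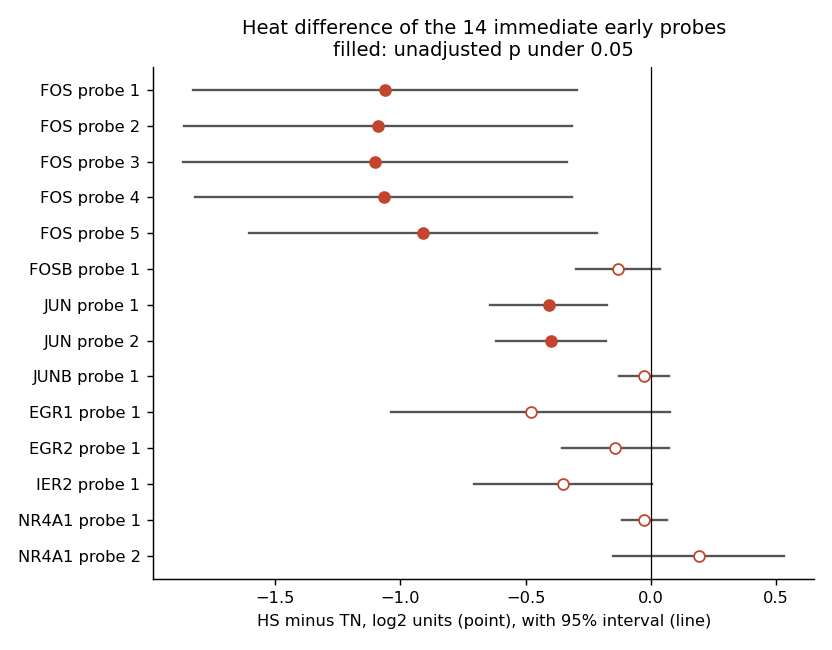
HS minus TN in log2 units (x axis) for the 14 probes with a row in the deposited table, from limma with breed in the model. Points are the estimates, lines their 95% intervals, and filled points have an unadjusted p under 0.05, which are the 5 FOS probes and the 2 spots of the JUN sequence, all lower in HS.

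Of the 14 probes, 0 passed the adjusted threshold for HS against TN in limma. Over all probes this threshold was passed by 10 of 45667, or 0.0219%. That count over all probes ran from 6, without CR HS 3 or CR TN 1, to 37, without F1 TN 3, when single arrays were left out, and from 0, with processed signals, to 92, with slide as a fixed block, over the alternatives. At an unadjusted p under 0.05 there were 7 of the 14 probes, all lower in HS, which stand for 6 distinct sequences and 2 genes, FOS and JUN. Of all probes 8.77% had an unadjusted p under 0.05, and 3.86% had one and were lower. The brightest probe was lower in HS for all 8 genes, by a median of -0.25, but NR4A1 turned to 0.083 with averaged probes and to 0.013 from processed signals, and its second probe was higher in HS. JUNB, at -0.03, was also close to 0. Over all genes the brightest probe was lower in HS for 40.8% of 9882, with a median of 0.02, and the median over all probes was 0.01. The 8 genes are not separate observations, since most of them varied together between pigs.

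The temperature comparison was also made within each breed. FOS differed by -0.38 (SE 0.66) in LW, -1.38 (SE 0.66, p 0.0445) in CR and -1.43 (SE 0.66, p 0.0377) in F1. JUN differed by -0.28 (SE 0.20) in LW, -0.65 (SE 0.20, p 0.00267) in CR and -0.29 (SE 0.20) in F1. EGR1 differed by 0.11 in LW, -0.91 in CR and -0.63 in F1 (SE 0.47 for each). IER2 differed by 0.04 in LW, -0.67 in CR (p 0.0326) and -0.43 in F1 (SE 0.30 for each). All adjusted p-values for these were 0.829 or more in the limma fit. The size of these values moved with single arrays, and in LW the sign of FOS, EGR1 and IER2 did too. With each of the 11 arrays of a breed left out in turn, FOS in LW ran from -0.79 without LW TN 1 to 0.09 without LW HS 1. EGR1 in LW ran from -0.23 to 0.45 without the same arrays, and IER2 in LW from -0.11 without LW HS 2 to 0.23 without LW HS 1. Both were below 0 without LW TN 1, LW HS 2 or LW HS 5. JUN kept its sign in LW, from -0.38 to -0.15 (the latter without LW TN 2). In CR the ranges were -1.64 to -1.02 for FOS, -0.76 to -0.53 for JUN, -1.19 to -0.71 for EGR1 and -0.83 to -0.50 for IER2. The unadjusted limma p of JUN in CR stayed at 0.0134 or less, while that of FOS rose to 0.132 without CR HS 3. In F1 they were -1.87 to -0.999 for FOS, -0.40 to -0.18 for JUN (the latter without F1 HS 4), -0.98 without F1 HS 3 to -0.34 without F1 HS 2 for EGR1 and -0.59 to -0.27 for IER2 (the latter without F1 TN 6). With slide as a fixed block IER2 in LW was -0.0059 and EGR1 in LW 0.05, while in F1 EGR1 was -0.35 and IER2 -0.23. The differences between breeds did not pass a test. The interaction of breed and temperature had p from 0.0565 for FOSB to 0.709 for EGR2 over the 14 probes, with adjusted p of 0.926 or more. At an unadjusted p under 0.05, 0 of the 14 probes passed that interaction test, against 4.25% of all probes. The 0 became 1 in 5 of 12 alternatives (LW HS 3 as Creole or left out, array weights, slide as a fixed or a random block). It also became 1 without CR HS 2, 4 or 6, F1 HS 1 or 3, F1 TN 1, LW HS 3 or 6, or LW TN 2.

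FOSB was the 1 probe of the 14 whose values did not overlap between the temperature groups of a breed. In CR, the TN arrays read 5.39, 5.54, 5.38, 5.67 and 5.45 and the 6 HS arrays 4.69 to 5.37. The FOSB probe was above background on 4 of 5 CR TN and 1 of 6 CR HS arrays. Most of its HS values are therefore bounds, and neither the separation nor the size of the difference was measured. The fitted difference was -0.35 (SE 0.13, limma p 0.0149, adjusted p 0.829), and without CR HS 3 it was -0.26 (limma p 0.0593). All HS arrays below all TN arrays was seen in CR for 0.246% of all probes, a share with which these bounds cannot be compared. NR4A1 probe 2 was higher in HS in LW, at 11.23 against 10.64, a difference of 0.58 (SE 0.29, limma p 0.0492, adjusted p 0.732). It ran from 0.38 without LW TN 2 to 0.75 without LW TN 3, while the first probe gave 0.08 (SE 0.07). In F1 the first probe was lower in HS by -0.16 (SE 0.07, p 0.0428, adjusted p 0.865), and its interaction with breed had p 0.0856 (adjusted p 0.926). Within breeds, 0 of all 45667 probes passed the adjusted threshold (0%). At an unadjusted p under 0.05 there was 1 of 14 probes in LW, higher in HS (6.8% of all probes, 4.06% higher). There were 8 in CR, all lower (5.85%, 2.66% lower), and 5 in F1, all lower (5.68%, 2.47% lower). The 8 in CR are 4 FOS probes, the 2 spots of the JUN sequence, IER2 and FOSB, so 4 genes. Of these, FOSB was mostly not above background in CR HS. The 5 in F1 are 4 FOS probes and NR4A1 probe 1, so 2 genes. These counts rested on single arrays. In CR the 8 became 2 without CR HS 3, 3 without CR HS 5, CR TN 4 or CR TN 5, and 4 without CR TN 3. In F1 the 5 became 0 without F1 HS 2, F1 HS 5 or F1 TN 3, 1 without F1 HS 4, F1 TN 5 or F1 TN 6, and 8 without F1 HS 1, and it was 0 with slide as a fixed block. The 1 probe in LW dropped out without LW TN 1, 2 or 5 or LW HS 2, 3 or 4, and also without any of several arrays of the other breeds, which share in the estimate of the spread.

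**Figure D3:**
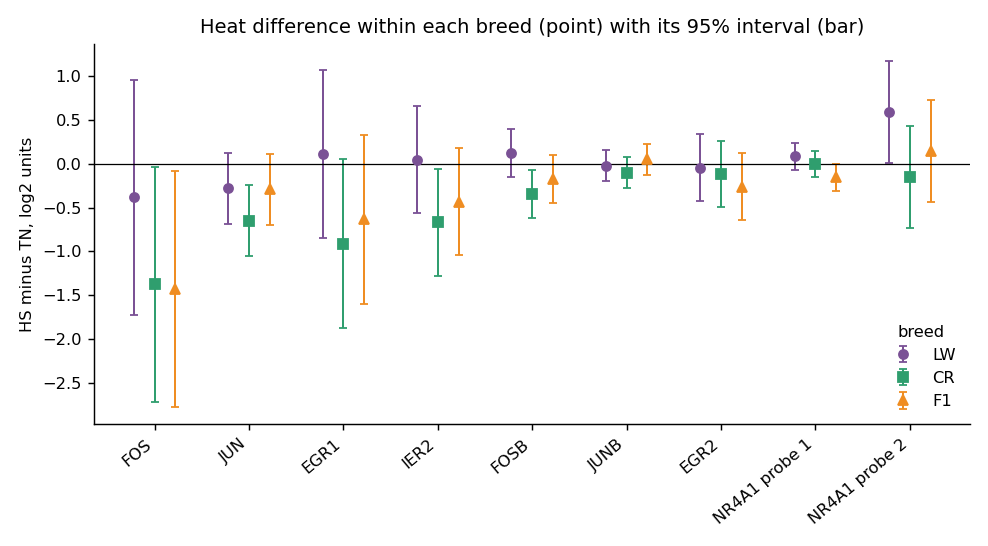
HS minus TN in log2 units (y axis) within LW, CR and F1, with 95% intervals, for the brightest probe of each gene and for NR4A1 probe 2. Intervals of the 3 breeds overlap for every probe shown, and FOS has the widest ones.

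The breeds did not differ in these genes past the adjusted threshold. For LW against CR 0 of 14 probes were called (6.65% of all probes), for F1 against LW 0 (1.48%) and for F1 against CR 0 (6.86%). At an unadjusted p under 0.05, the 2 spots of the JUN sequence were lower in LW than in CR (18.7% of all probes had such a p, and 9.01% with a lower level), and 0 of the 14 passed in the comparisons with F1 (13.9% and 21.8%). JUN averaged 14.10 ± 0.36 in LW, 14.26 ± 0.33 in F1 and 14.40 ± 0.49 in CR (n = 11 each). The difference LW minus CR was -0.30 (SE 0.14, limma p 0.0397, adjusted p 0.236), and F1 did not differ beyond the spread from either neighbour (limma p 0.381 and 0.221). The 2 JUN spots both lost an unadjusted p under 0.05 without CR HS 2, CR TN 1, CR TN 4, LW HS 1, LW HS 6, LW TN 1, LW TN 3 or LW TN 4, and 1 of them did without CR HS 1, 4 or 6, CR TN 5 or LW TN 5. With array weights LW minus CR for JUN was -0.40 and passed (limma, adjusted p 0.0470). FOS averaged 12.30 ± 1.36 in F1, 12.35 ± 1.22 in LW and 12.73 ± 1.19 in CR, and no neighbours in that order differed beyond their spread. For IER2 the breed means were 11.34 ± 0.58 in F1, 11.35 ± 0.57 in CR and 11.35 ± 0.50 in LW.

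Several of these genes varied widely between pigs of the same group. After breed-by-temperature means were removed, FOS had an SD of 1.16 log2 units, which placed it at rank 56 among 45667 probes, against a median SD of 0.20. EGR1 followed with 0.83 (rank 216), IER2 with 0.52 (rank 1183), NR4A1 probe 2 with 0.50 (rank 1387), JUN with 0.34 (rank 5286) and EGR2 with 0.32 (rank 6498). FOSB (0.23) and JUNB (0.14), the dim probes, and NR4A1 probe 1 (0.11) were close to or below the median. FOS varied by 0.88 within TN groups and by 1.37 within HS groups, a difference in spread that was not tested. The lowest FOS array, F1 HS 5 at 9.81, and the highest, CR TN 4 at 14.46, were 25.1-fold apart.

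The same pigs were high or low for several of these genes. FOS and EGR1 deviations from the group means correlated by Pearson's r 0.895 and Spearman's rho 0.908 over the 33 arrays. Each had a permutation p of 1e-05, the smallest possible with 100000 resamples. Adjusted over the 28 pairs of genes computed it was 9.33e-05. With the 2 arrays most distant from the FOS median left out r stayed at 0.900, and within slides of 7 or 8 arrays it was 0.954, 0.727, 0.839 and 0.903. FOS and IER2 gave r 0.883 and rho 0.889 (permutation p 1e-05, adjusted p 9.33e-05 for each), r 0.861 without those 2 arrays, and 0.729 to 0.940 within slides. FOS and JUN gave r 0.718 and rho 0.711 (permutation, adjusted p 0.000392 and 0.000504), r 0.655 without those 2 arrays, and 0.643 to 0.934 within slides. Slide 1, with 3 arrays, was too small for a value of its own.

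**Figure D4:**
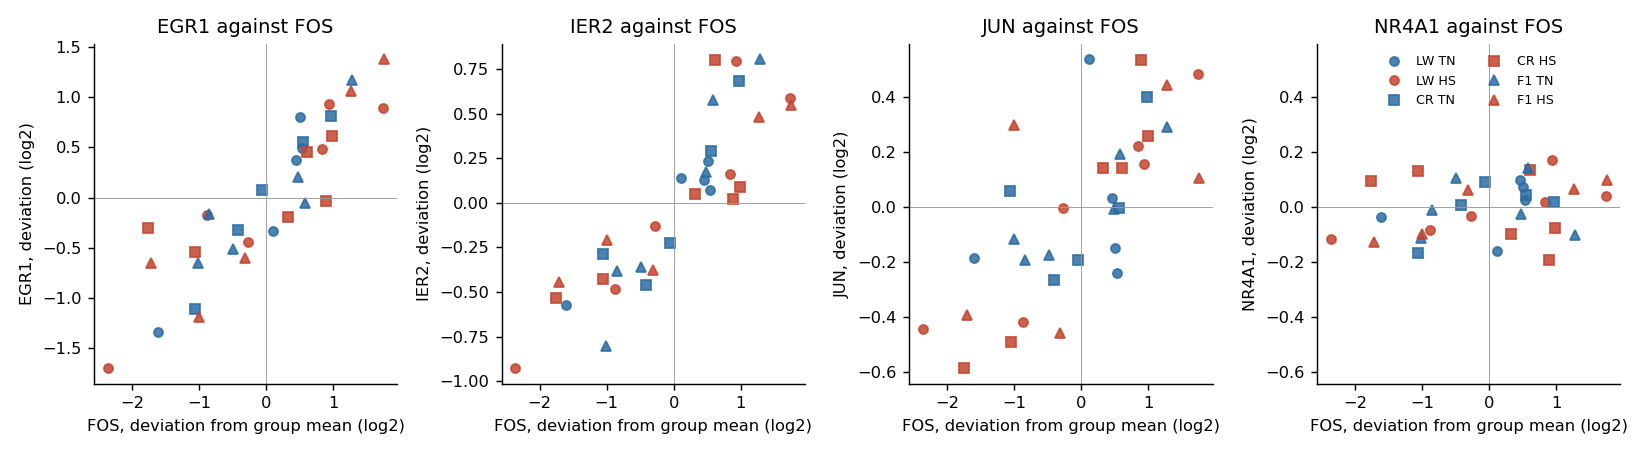
Deviation of each array from the mean of its breed-by-temperature group in log2 units, for FOS (x axis) against EGR1, IER2, JUN and NR4A1 probe 1 (y axes). Each point is 1 pig, blue for TN and red for HS, with circles for LW, squares for CR and triangles for F1. EGR1 and IER2 follow FOS (r 0.895 and 0.883), JUN more loosely (0.718), and NR4A1 does not pass (0.293).

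Over all 28 pairs the median r was 0.542, 25 pairs were positive and 18 passed adjustment on both r and rho (permutation tests). The 6 pairs among FOS, JUN, EGR1 and IER2 all passed, with r from 0.470 (JUN and EGR1) to 0.895, and within slides from 0.405 to 0.954. EGR2 followed EGR1 (r 0.683, rho 0.636, permutation, adjusted p 0.000607 and 0.00291). With the 2 arrays most distant from the EGR1 median left out r was 0.645, and within slides it was 0.675 to 0.877. The dim FOSB and JUNB probes correlated with FOS at r 0.572 and 0.582. Within slides these ran from 0.134 to 0.810 for FOSB and from 0.391 to 0.692 for JUNB, and they rest in part on values below background, which are bounds. NR4A1 probe 1 stood apart. Of its 7 pairs, 1 passed, that with EGR1 (r 0.431, rho 0.418, permutation, adjusted p 0.0262 and 0.0364), and within slides this r ran from -0.178 to 0.651, so it did not hold within slides. NR4A1 probe 2 passed in 3 of 8 relations, with EGR1 at r 0.613, IER2 at 0.480 and FOS at 0.401 (permutation, adjusted p 0.00352, 0.0249 and 0.0346). Within slides these ran from 0.473 to 0.676 with EGR1, but from 0.050 to 0.651 with IER2 and from 0.037 to 0.502 with FOS, the lowest of both on slide 4. As a comparison across all probes, 11 of the 45593 other probes had a higher r with FOS than JUN did and 1397 had a higher r than NR4A1 probe 1 did.

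Named by array, the 6 lowest FOS values were those of CR HS 3, CR HS 5, F1 HS 2, F1 HS 5, LW HS 1 and LW TN 1, so 5 of 6 were HS pigs. EGR1 shared 5 of these arrays among its own 6 lowest, IER2 4, JUN 4 and NR4A1 2. The 6 lowest JUN values were all from HS pigs. At the upper end 5 of the 6 highest FOS values came from TN pigs. Of those 6 arrays IER2 shared 5 among its own 6 highest, EGR1 4, JUN 3 and NR4A1 1. TN pigs gave 4 of the 6 highest values for IER2, 3 for EGR1, 5 for JUN and 3 for NR4A1.

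Among 9862 other genes, each by its brightest probe, the 8 whose deviations correlated best with the mean standardized deviation of the immediate early genes over the 33 arrays were KLF4 (r 0.743), SOCS3 (0.743), BTG2 (0.705), ZFP36L2 (0.678), TMEM215 (0.656), GADD45G (0.641), DUSP1 (0.605) and LOC396790 (0.602). These r values are a description, with no test. The other 9 KLF4 probes had r from -0.136 to 0.771 and the other 2 SOCS3 probes from 0.284 to 0.676. KLF4 is a zinc finger factor, SOCS3 an inhibitor of cytokine signalling, DUSP1 a phosphatase that switches off MAP kinases, and ZFP36L2 a protein that promotes mRNA decay. KLF4 differed between temperatures by -0.57 (SE 0.15, p 0.000584, adjusted p 0.160) and SOCS3 by -0.43 (SE 0.13, p 0.00260, adjusted p 0.250), each lower in HS. For temperature, the other KLF4 probes gave -0.54 to -0.0020 and the other SOCS3 probes -0.31 to -0.02. KLF4 was below the TN mean of its breed on 15 of 17 HS arrays and SOCS3 on 14. The other 6 of these genes had an unadjusted p above 0.05 for temperature.

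The related lists were counted by the brightest probe of each gene, and 0 genes passed the adjusted threshold for HS against TN in any of them. Beside the counts at an unadjusted p under 0.05 that follow stand the 8.77% of all probes, and 3.86% lower, given above. Among 11 family relatives in the table, 9 were higher and 2 lower in HS, with a median of 0.03, and 3 higher and 1 lower had an unadjusted p under 0.05. The NR4A1 relatives NR4A2 and NR4A3 were higher in HS by 0.48 (SE 0.20, p 0.0212, adjusted p 0.457) and 0.57 (SE 0.21, p 0.0116, adjusted p 0.384). Their other probes were also higher, by 0.45 for NR4A2 and by 0.12 to 0.60 for NR4A3. NR4A2 lay above the TN mean of its breed on 13 of 17 HS arrays and NR4A3 on 12, in the direction opposite to FOS and JUN. ATF7, a bZIP factor, was lower by -0.11 (SE 0.05, p 0.0291, adjusted p 0.503). Among 11 upstream factors and kinases 8 were higher, with a median of 0.05, and 1 had an unadjusted p under 0.05. It was CREM, a cAMP-responsive factor, at 0.25 (SE 0.09, p 0.00907, adjusted p 0.359). The kinases MAPK9 and MAP2K1 followed at 0.12 (SE 0.06) and 0.09 (SE 0.07).

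Among 13 feedback genes, which encode phosphatases, mRNA decay factors and antiproliferative factors, 8 were lower and the median was -0.03. DUSP2 was lower by -0.28 (SE 0.11, p 0.0166, adjusted p 0.423) and TOB1, an antiproliferative factor, higher by 0.17 (SE 0.04, p 0.000791, adjusted p 0.170), although the other TOB1 probe gave 0.04. DUSP6 differed by -0.23 (SE 0.13, adjusted p 0.639). Among 22 other rapidly induced genes 14 were lower, with a median of -0.08, and 5 of these had an unadjusted p under 0.05. They include KLF4, SOCS3 and the matricellular factor CCN2, at -0.44 (SE 0.10, p 0.000201, adjusted p 0.129), lower on 16 of 17 HS arrays. The 7 pituitary genes with known control by these factors, among them LHB, FSHB, POMC and GNRHR, ran from -0.11 to 0.15, and 0 had an unadjusted p under 0.05. Those with the smallest p were the CRH receptor CRHR1 at 0.15 (SE 0.09), PRL at 0.06 (SE 0.05) and the GnRH receptor GNRHR at -0.11 (SE 0.12). Between breeds, 3 of the 64 related genes passed adjustment for LW against CR, namely CCN2, PIM1 and GNRHR, and 4 for F1 against CR, namely SPRY2, PIM1, RHOB and GNRHR, and 0 for F1 against LW. These are shares of 4.69% and 6.25%, near the 6.65% and 6.86% of all probes.

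**Figure D5:**
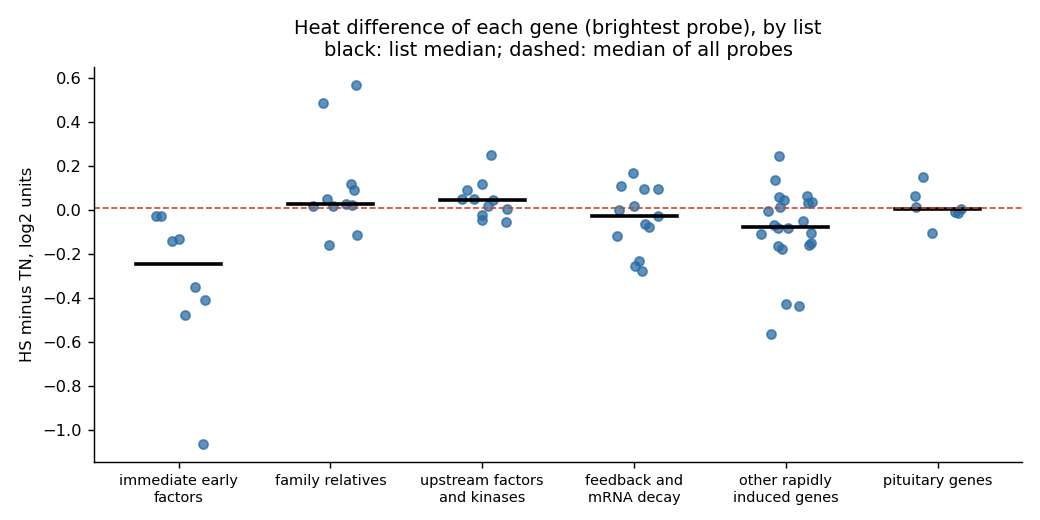
HS minus TN in log2 units (y axis) of the brightest probe of each gene, by list, with each list's median as a black bar and the median of all probes as a dashed line. The immediate early factors have a median of -0.25 and the other lists medians from -0.08 to 0.05.

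Slide, which is also the scan unit, and tissue markers were set beside these values. On the 14 probes slide passed the adjusted threshold in 0 cases, against 13.2% of all probes. Within slides FOS was lower in HS on 4 of 5, with differences from -2.53 to 1.99, and the 1.99 came from slide 1, which held 2 HS arrays and 1 TN array. JUN was lower on 4 of 5 slides (-0.75 to 0.39), EGR1 on 4 and IER2 on 3. With slide as a fixed block FOS differed by -0.98 (adjusted p 0.296) and JUN by -0.42 (adjusted p 0.0960).

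Markers of other cells were compared between temperatures too. At an unadjusted p under 0.05, 0 of the leukocyte, folliculostellate, intermediate lobe and posterior lobe markers passed, and 8.77% of all probes did. Of 5 fibroblast markers, 4 (COL1A1, COL1A2, COL3A1 and DCN) had an unadjusted p under 0.05 for HS against TN, with a median of -0.32 and a mean log2 level of the list from 11.57 to 12.72 in TN and 11.48 to 12.33 in HS. Of 4 blood markers HBB and AHSP did, and HBB was the 1 marker that passed adjustment, with a list median of -0.20 and a list mean from 8.94 to 9.997 in TN and 8.68 to 9.56 in HS. Of 6 endothelial markers PECAM1 and VWF did (median -0.18, list mean 9.80 to 11.39 in TN and 9.71 to 10.63 in HS). Their part in the FOS and JUN differences was not tested. FOS deviations were compared with 11 measures of array quality and marker lists. Pearson's r ran from -0.19 for the intermediate lobe markers to 0.28 for leukocytes, and for blood r was 0.263 and rho 0.266 (permutation p 0.136 and 0.154), while within slides r with blood ran from 0.147 to 0.708. With leukocytes it ran from 0.0084 to 0.867 within slides, and with the percentage of spots above background from -0.035 to 0.817. With group and slide removed, r was 0.401 for blood and 0.367 for leukocytes. None of the 11 relations over the 33 arrays passed adjustment, with adjusted permutation p of 0.661 or more. Group means were removed from these deviations, so the HS minus TN difference was not tested here.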

How the data were processed

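Pituitary RNA of each pig was hybridised to its own 1-colour Agilent pig array, with no pooling, per the methods of the study. The deposited table holds log2 values that the authors made from median spot intensity after quality control by quantile normalization, keeping only probes they called expressed, and it was used as deposited. The deposited scanner files hold linear intensity values and Agilent's call of spots well above background, and these served for quality and for alternatives. Rebuilt values differed from the table by a median of 0.00022.

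limma 3.58.1 in R 4.3.3 was fitted to all 45667 probes, with breed and temperature for the main comparisons and with 6 group means for those within breeds and for the interaction, and p-values were Benjamini-Hochberg adjusted over all probes at a threshold of 0.05. The test was checked on simulated data. Pen, slaughter day and litter are not in the labels and were not fitted, although the methods describe blocks of littermates. Correlations used deviations from group means, with 100000 permutations within groups. The genes named were the 10 genes themselves with all their probes, the 3 genes of each related list with the smallest p for HS against TN, those of the lists that passed adjustment between breeds, and the 8 genes most alike in profile. The brightest probe over the 33 arrays stood for a gene. The genes and lists were chosen with earlier results of these data known. Alternatives covered normalization, background correction, filters, array weights, slide, the doubtful breed label and leaving out each array. The number of arrays limits the precision.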

Additional observations from a re-analysis of the deposited data

Results flagged for a closer look

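Among 84 sets of values (14 probes in 6 groups), 7 had an array far from the others of its group, and chance gives such a gap in about 1 of 20. For 6 of these the array was LW TN 1, on slide 1. It read 10.96, 10.77, 10.61, 9.79 and 7.71 on FOS probes 1 to 5, which are repeated readings of 1 transcript, and the other LW TN arrays read 12.67 to 13.10 on probe 1. It read 10.75 for IER2, against 11.40 to 11.56 on the others. Without it the FOS difference between HS and TN within LW was -0.79 (p 0.257) in place of -0.38, and the interaction p was 0.754, whereas without LW HS 1, the lowest LW array for FOS, that difference was 0.09 (p 0.891). Without LW TN 1 the LW differences of EGR1 and IER2 were -0.23 and -0.10 in place of 0.11 and 0.04, and without LW HS 1 they were 0.45 and 0.23. The FOSB probe read 5.05 on F1 TN 1, against 5.48 to 5.62 on the other F1 TN arrays, and without that array the FOSB interaction had an unadjusted p of 0.0313 and an adjusted p of 0.927.

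NR4A1 probe 2 was 0.58 higher in HS within LW and 0.15 lower within CR (-0.15), a gap of 0.73 log2 units, and the interaction of breed and temperature did not pass for it (p 0.203). Without CR TN 3 the CR value was 0.07. The second EGR2 probe and the ATF3 probe, outside the deposited table, were each above background on 2 of 17 HS arrays and 1 of 16 TN arrays.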

How the results depend on the processing

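Of the 14 probes 0 passed for HS against TN in limma under all 13 alternatives and without each of the 33 arrays in turn. The number with an unadjusted p under 0.05 ran from 2, when the probes of a gene were averaged, to 9. Averaging tested 8 genes in place of the 14 probes, and the 2 were FOS and JUN. The filter to probes above background on every array kept 12 of the 14. The FOS difference ran from -1.10 to -0.98 over the alternatives (adjusted p 0.269 to 0.478) and from -1.21 to -0.92 without single arrays, and JUN from -0.42 to -0.36 (adjusted p 0.0960 to 0.299) and from -0.45 to -0.36. For LW against CR, array weights brought the probes called from 0 to 2, both of the JUN sequence. The median r of the 28 pairs ran from 0.523 to 0.586 over the alternatives, and from 0.497 to 0.556 without single arrays. Of 411 HS against TN values 2 changed sign, both of NR4A1, which became 0.083 with averaged probes and 0.013 from processed signals. Differences between breeds close to 0 changed sign more often, and the cause was not tested. For LW against CR, IER2 became -0.00654 with LW HS 3 as Creole, -0.00194 without it, -0.070 with array weights, -0.034 with slide as a fixed block and -0.012 as a random block, and NR4A1 became 0.019 from processed signals. For F1 against LW, slide as a fixed block gave JUNB 0.0013 and IER2 0.011. For F1 against CR, scanner intensities gave JUNB -0.0027, array weights gave EGR1 -0.024 and NR4A1 probe 2 -0.063, and LW HS 3 as Creole gave NR4A1 probe 2 -0.010. Without single arrays, LW against CR ran from -0.018 to 0.039 for JUNB, -0.18 to 0.11 for EGR1, -0.096 to 0.093 for IER2 and -0.038 to 0.0071 for NR4A1. F1 against LW ran from -0.37 to 0.060 for FOS, -0.044 to 0.013 for JUNB, -0.069 to 0.26 for EGR1, -0.13 to 0.050 for IER2 and -0.0026 to 0.21 for NR4A1 probe 2. F1 against CR ran from -0.032 to 0.033 for JUNB, -0.087 to 0.20 for EGR1, -0.12 to 0.054 for IER2 and -0.12 to 0.12 for NR4A1 probe 2. No paired analysis was possible because the labels identify no litter, and the replicate numbers only follow the order of the samples. The FOSB and JUNB probes were close to background, so their smaller values are bounds.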
